A study of Mus musculus with 22 samples.

Results

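The Zfp genes are the mouse genes whose symbol is Zfp followed by a number, a naming scheme for zinc-finger proteins. Members were taken by symbol alone (Zfp, digits and at most 1 closing letter) together with a mean RNA level over the coding sequence (CDS) of at least 1 RPKM in the control cells, where RPKM is the number of reads per kilobase of sequence, scaled to the normalised size of the library. Of the 304 such genes among the 10516 genes measured, 298 passed. Just inside the threshold lay Zfp94 at 1.01 and Zfp459 at 1.01 RPKM, and just outside lay Zfp341 at 0.895 and Zfp667 at 0.892 RPKM. The cells were NIH3T3, an immortalised line of mouse embryo fibroblasts. They were transduced with lentiviral shRNA vectors and selected with puromycin: a scramble shRNA or a shRNA against Gfp, a sequence mouse cells lack, as controls, or Denr shRNA1 or Denr shRNA2 as the knockdown (Denr Kd). All cultures received cycloheximide at 100 µg/ml for 2 min before lysis, and each lysate gave 1 library of ribosome-protected fragments (RPF-seq, footprints) and 1 of total RNA (RNA-seq). There were 3 lysates each for scramble shRNA, Denr shRNA1 and Denr shRNA2 and 2 for Gfp shRNA, hence 5 control and 6 Denr Kd lysates and 22 libraries.

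DENR acts with MCTS1 on post-termination ribosomes and allows them to start again downstream after they have translated an upstream open reading frame (uORF), a short reading frame in the 5′ UTR. A classical C2H2 zinc finger is a short fold in which a pair of cysteines and a pair of histidines hold a zinc ion, and strings of such fingers read DNA base by base. In mice the largest class of these proteins carries a KRAB domain at the amino end, which recruits TRIM28 and through it the methyltransferase SETDB1, and many of them silence transposable elements. KRAB genes lie in clusters of recent duplicates, so that neighbouring members can be nearly alike in sequence. Not every Zfp symbol stands for a transcription factor: Zfp36 (tristetraprolin) binds AU-rich mRNA, Zfp598 is a ubiquitin ligase of stalled ribosomes, Zfp207 works at the spindle and Zfp622 in the maturation of the large ribosomal subunit.

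The repeated unit of these genes could be read in the coding sequences of the GENCODE vM21 transcripts (GRCm38). The linker between neighbouring fingers begins with threonine, glycine, glutamate, lysine and proline, and the bases that encode it recur from gene to gene. The following windows of 30 bases of coding sequence are shown because each is shared, letter for letter, by several members, at about the length of a footprint. Capitals mark the 15 bases of the linker.
window shared by 14 members: attcatACAGGAGAGAAACCTtacaaatgt
window shared by 9 members: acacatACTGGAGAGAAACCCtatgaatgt
window shared by 4 members: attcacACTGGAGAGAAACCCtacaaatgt
The first window occurred 37 times in the 14 members, 8 of them on chromosome 17 and 6 on chromosome 4, among them Zfp946, Zfp600 and Zfp984. The second occurred 19 times in 9 members on 6 chromosomes, Zfp958 among them. The third occurred once in each of Zfp72, Zfp273, Zfp287 and Zfp386.

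The members were a family by sequence as well as by name. In the translated CDS of their longest coding transcript, 292 of the 298 held at least 1 C2H2 pattern, with a median of 10 and a maximum of 36 in Zfp142, followed by Zfp619 with 33. The 6 members without the pattern were Zfp36, Zfp330, Zfp365, Zfp703, Zfp839 and Zfp935, of which Zfp36 has fingers of another kind, with 3 cysteines and 1 histidine. A KRAB-like pattern of residues was found in 148 members (49.7%), and these made up most of the 189 genes with that pattern in the whole table. Chromosome 7 held 76 members, chromosome 17 held 41 and chromosome 13 held 27, and 173 members (58.1%) lay within 200 kb of another. An AUG uORF was taken as an AUG in the annotated 5′ UTR with a stop in frame, at least 9 bases long. The stop could lie beyond the 5′ UTR, so an AUG in frame with the CDS was counted too. Such a uORF was present in 62.8% of the 290 members with a 5′ UTR and in 50.4% of all genes with one. With the stop inside the 5′ UTR the shares were 56.9% and 42.2%. The median CDS was 1742 bases in members and 1410 bases in all genes, and the median 5′ UTR was 203 and 175 bases. Windows of 30 bases that also occur in a protein-coding transcript of another gene, its untranslated regions included, were counted as shared. They made up at least 5% of the CDS in 96 members (32.2%) and in 6.13% of all genes. In 32 members they exceeded 50% of the CDS, and in 108 there was none. Apart from shared windows, 47 members had coding bases under an exon of another gene, 22 of them on the same strand. On the other strand such exons covered 57.1% of the CDS in Zfp459, 38.2% in Zfp367 and 25.8% in Zfp703. On the same strand they covered 99.3% in Zfp935.

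In control cells the members were weakly expressed. Their median RNA level was 8.27 RPKM against 28.2 RPKM for all genes, and 266 of the 298 lay below the median of all genes. The 3 highest were Zfp706, a small protein with a single finger, at 281 ± 76.7 RPKM (SD, n = 5), Zfp207 at 209 ± 46.3 RPKM and Zfp91, a ubiquitin ligase, at 186 ± 30.9 RPKM, and their ranges overlapped. The 3 lowest were Zfp94, Zfp459 and Zfp976, at 1.01, 1.01 and 1.06 RPKM. By reads, a member had a median of 222 RNA reads and 111 footprints per library, where all genes had 644 and 492, and the lowest count was 5 RNA reads and 3 footprints. The 158 members with a median of at least 100 footprints are measured more firmly than the others. Levels between genes are compared here per length, on the RPKM scale.

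Translation efficiency (TE) was the log2 of CDS footprint RPKM over CDS RNA RPKM in the same lysate, with 0.1 RPKM added to each. In control cells the median log2 TE of the members was -0.97, against -0.08 for all genes, and 273 of 298 members lay below the median of all genes. Other finger families shared this position in part: the median log2 TE was -0.83 for 33 Zbtb genes, -0.50 for 16 Zkscan or Zscan genes and 0.61 for 17 Klf or Sp genes. Within the members it was -1.07 with 10 or more fingers (168 genes) and -0.67 with fewer (130 genes). Across the 298 members Spearman's rho of finger number with TE was -0.37, a description over genes that share libraries. By shared sequence the median log2 TE was -0.67 in the 108 members with no shared window and -1.05 in the 96 with at least 5%. The part of shared windows in the difference by finger number was not tested. Members with an AUG uORF had a median of -1.05 and those without 1 had -0.81, a smaller step than in all genes, where the medians were -0.36 and 0.14. The highest values were those of Zfp580 (2.43 ± 0.87, SD, n = 5), Zfp395 (2.17 ± 0.35) and Zfp703 (2.06 ± 0.23). The first of these rests on 5 to 26 RNA reads per library. The lowest were Zfp236 (-3.35), Zfp251 (-3.08) and Zfp646 (-2.66). Zfp236 and Zfp646 are long proteins, with 30 and 27 finger patterns. The plot of RNA level against TE shows the members as a band in the lower left of all genes.

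**Figure D1:**
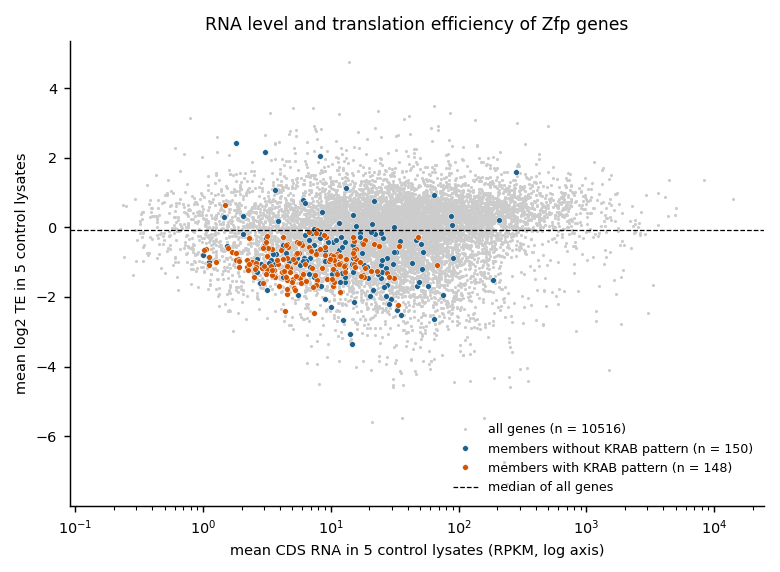
Mean log2 TE (vertical axis) against mean CDS RNA in RPKM (horizontal log axis) in the 5 control lysates, for all 10516 genes (grey points), the 150 members without a KRAB pattern (blue) and the 148 members with it (orange). The dashed line marks the median of all genes, -0.08, and 273 of the 298 members lie below it.

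The 22 libraries held between 8514080 and 21649878 reads on coding sequences and 5′ UTRs. Denr RNA lay between 165 and 190 RPKM in the control and between 15.5 and 44.0 RPKM in the Denr Kd lysates. All 8 fibroblast markers of a fixed list were present, and their summed RNA spanned 7294 to 8868 RPKM in controls and 7619 to 9517 RPKM in Denr Kd. Of 10 markers of epithelial, immune, endothelial and muscle cells, 3 (Cdh1, Cdh5 and Des) were in the files, at sums of 4.87 to 6.37 and 4.99 to 5.86 RPKM.

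Lysates of the same group differed in the members' RNA more than knockdown and control did. Each gene was centred on its mean over the 11 lysates, and the median over members was read per lysate. In RNA it was -0.17 (log2) in Gfp shRNA replicate 1 and -0.14 in Denr shRNA1 replicate 1, and reached 0.15 in Denr shRNA1 replicate 3 and 0.13 in scramble shRNA replicate 3. In TE it was 0.23 and 0.24 in the lysates with the low RNA, while the other 9 lay between -0.13 and 0.04. The differences were larger in members with more shared sequence. In the 96 members with at least 5% shared windows the median RNA was -0.50 in Gfp shRNA replicate 1, -0.54 in Denr shRNA1 replicate 1 and 0.43 in scramble shRNA replicate 3. In the 202 members with less, the same 3 lysates gave -0.09, 0.02 and 0.05. The 32 members with over 50% shared windows reached -0.62, -0.75 and 0.53. The 546 other genes with at least 5% shared windows did not follow, at 0.06, 0.16 and -0.04. Among members with at least 5% shared windows, the 77 with the pattern gave -0.54, -0.61 and 0.44 and the 19 without it -0.23, -0.28 and 0.27. Footprints moved less, with -0.21 to 0.18 over the 11 lysates in the 96 members. Both lysates with the low RNA, 1 a control and 1 a knockdown, are numbered 1, and the part of library preparation or read assignment in this was not tested. Counts without these lysates are given beside the main counts, and the medians for Denr Kd minus control in the closing section.

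**Figure D2:**
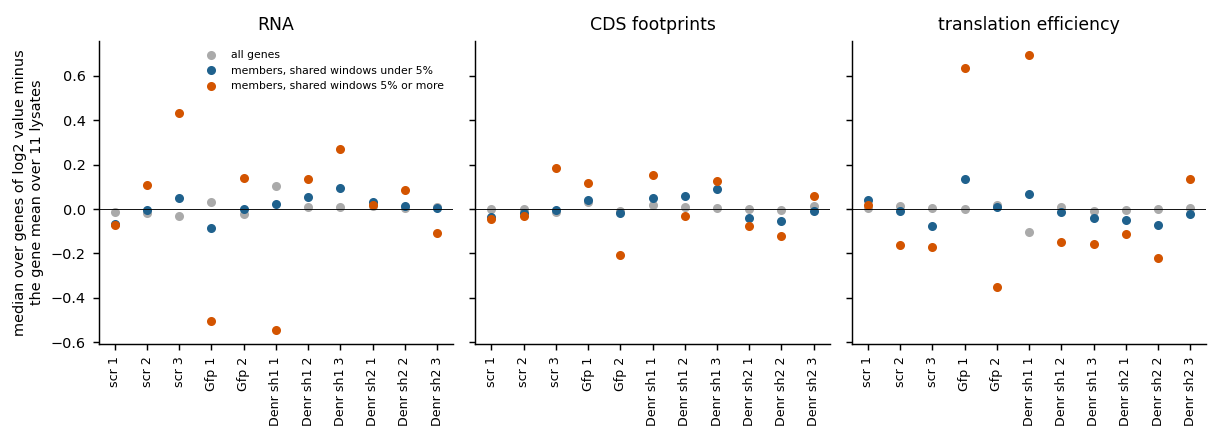
Median over genes of the log2 value minus the gene's mean over 11 lysates (vertical axis), by lysate (horizontal axis: scr, scramble shRNA; sh1 and sh2, Denr shRNA1 and shRNA2), for RNA, CDS footprints and TE. Orange points (96 members with at least 5% shared windows) leave the zero line in Gfp shRNA replicate 1 and Denr shRNA1 replicate 1, at -0.50 and -0.54 in RNA, while blue points (202 other members) and grey points (all genes) stay within 0.14 of it.

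The first comparison asked which members' RNA differed between Denr Kd and control. At a false discovery rate (FDR) of 0.1 in limma over all genes, 5 of 298 members were higher (1.68%) and 0 were lower. In all genes 2.68% were higher and 0.865% lower, 3.55% in either direction. At an unadjusted p under 0.05, 26 members were higher and 5 lower, beside 1180 and 517 of the 10516 genes. The median change was 0.02 (log2) in members and 0.03 in all genes.

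Zfp30, a KRAB protein on chromosome 7 (29783998 to 29794702, GRCm38), showed the largest RNA change. It lay at 1.68, 1.90 and 1.66 RPKM with scramble shRNA, 1.59 and 1.66 with Gfp shRNA, 2.57, 2.70 and 2.37 with Denr shRNA1, and 3.12, 3.15 and 3.14 with Denr shRNA2. All Denr Kd lysates were above all controls, with a log2 change of 0.70 ± 0.11 (SE, limma adjusted p = 0.0075). Zfp64, on chromosome 2 (168893331 to 168955587), is a C2H2 regulator of transcription with 9 finger patterns. Its RNA was 31.6, 27.9 and 29.3 RPKM with scramble, 31.5 and 28.4 with Gfp, 46.5, 38.9 and 37.2 with Denr shRNA1 and 45.4, 41.2 and 44.7 with Denr shRNA2. The groups did not overlap, and the change was 0.50 ± 0.08 (adjusted p = 0.0062).

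Zfp827, on chromosome 8 (79028437 to 79193766), is known to bring the NuRD complex to telomeres. It was at 5.17, 5.45 and 5.35 RPKM with scramble, 5.33 and 5.65 with Gfp, 7.08, 7.22 and 6.70 with Denr shRNA1 and 6.94, 8.18 and 8.78 with Denr shRNA2. The groups again did not overlap (change 0.46 ± 0.09, adjusted p = 0.0205), and 4.27% of its coding bases lie under a same-strand transcript, Gm45728. Zfp82, a KRAB gene on chromosome 7 (30054489 to 30072900), ran from 3.89 to 5.52 RPKM in controls and from 5.54 to 7.53 in Denr Kd (0.42 ± 0.11, adjusted p = 0.083). Its entire CDS lies under exons of another annotated gene, Gm26920, on the same strand, so that reads of both cannot be told apart. Zfp507, on chromosome 7 (35772343 to 35803003), ran from 14.1 to 17.1 and from 16.4 to 20.8 RPKM, and its groups overlapped (0.30 ± 0.08, adjusted p = 0.09). The calls of Zfp30 and Zfp64 held in all 22 alternatives tried, whereas those of Zfp82 and Zfp507 were lost in 13 of 22 each. Without Gfp shRNA replicate 1 and Denr shRNA1 replicate 1 the counts were 13 higher and 4 lower, as those of all genes rose from 282 to 718 higher and from 91 to 257 lower.

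Footprints over the CDS gave 5 members higher and 2 lower at FDR 0.1 (2.35% in either direction), where 10.0% of all genes were called in either direction, 5.47% higher and 4.55% lower. The median change was 0.02 in members and 0.01 in all genes.

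Zfp689, a KRAB protein known to repress LINE elements, lies on chromosome 7 (127442136 to 127449158). Its footprints were 1.30, 1.39 and 1.35 RPKM with scramble, 1.72 and 1.41 with Gfp, 2.39, 1.94 and 2.38 with Denr shRNA1 and 2.55, 2.29 and 1.599 with Denr shRNA2. A single Denr Kd lysate reached into the control range, and the change was 0.57 ± 0.13 (adjusted p = 0.028) on 22 to 53 reads per library. An antisense transcript, B130055M24Rik, covers 13.7% of its coding bases. Zfp410, an activator of Chd4 that lies on chromosome 12 (84316852 to 84343723), was at 11.6, 11.5 and 12.9 RPKM with scramble, 11.1 and 12.4 with Gfp, 15.1, 13.7 and 15.0 with Denr shRNA1 and 13.9, 13.9 and 13.1 with Denr shRNA2. All Denr Kd values were higher than all controls (0.25 ± 0.06, adjusted p = 0.045). Zfp362, on chromosome 4 (128773088 to 128806045), also separated, with 9.80 to 12.7 RPKM in controls and 13.1 to 15.3 in Denr Kd (0.26 ± 0.08, adjusted p = 0.065).

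Zfp868 on chromosome 8 and the KRAB gene Zfp128 on chromosome 7 overlapped between the groups. Zfp868 ran from 3.27 to 3.83 RPKM in controls and from 3.56 to 4.85 in Denr Kd (0.33 ± 0.09, adjusted p = 0.063), and Zfp128 from 1.41 to 2.02 and from 2.00 to 2.47 (0.37 ± 0.12, adjusted p = 0.085). The 2 members with lower footprints were Zfp518b on chromosome 5 and Zfp131 on chromosome 13. Zfp518b was at 5.33, 5.18 and 5.21 RPKM with scramble but 4.48 and 3.92 with Gfp, and ran from 3.46 to 4.11 in Denr Kd. Of the controls only the Gfp value of 3.92 lay within the Denr Kd range (-0.30 ± 0.10, adjusted p = 0.086). Zfp131 ran from 16.5 to 18.6 in controls and from 13.8 to 16.6 in Denr Kd (-0.22 ± 0.06, adjusted p = 0.071). None of these 7 genes passed the threshold in RNA, where their adjusted p-values lay between 0.52 and 0.87. Without Gfp shRNA replicate 1 and Denr shRNA1 replicate 1, 1 member was higher and 2 were lower, and the counts of all genes were 520 higher and 341 lower.

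**Figure D3:**
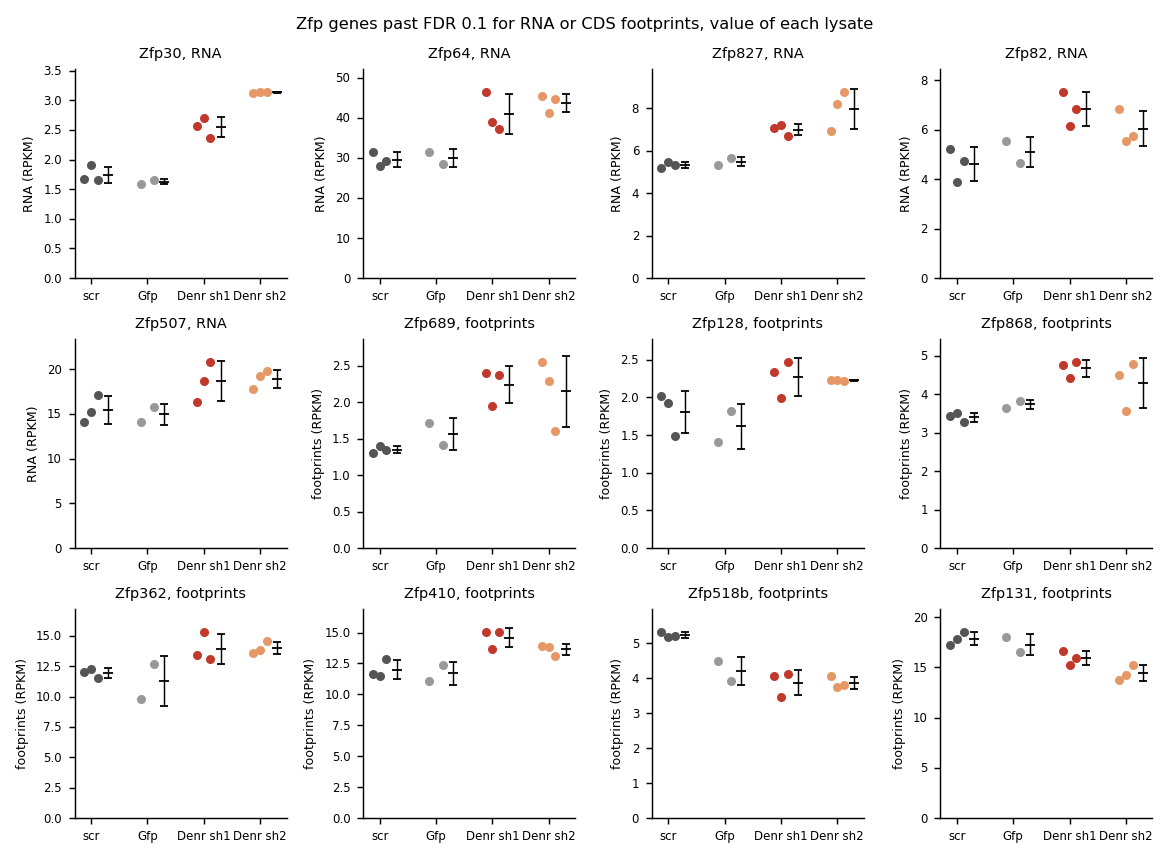
RPKM of each lysate (points, vertical axis from 0) by shRNA (horizontal axis: scr, scramble; sh1 and sh2, Denr shRNA1 and shRNA2) for the 5 members past FDR 0.1 in RNA and the 7 in CDS footprints, with the mean and SD of each group beside the points (n = 3, for Gfp 2). Zfp30 RNA is higher in all Denr Kd lysates (2.37 to 3.15) than in all controls (1.59 to 1.90), while Zfp518b footprints with Gfp shRNA (4.48 and 3.92) lie above and within the Denr Kd range, in that order.

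In TE, 1 member was lower at FDR 0.1 (0.336%) and 0 were higher. In all genes 0.475% were lower and 0.0% higher. At an unadjusted p under 0.05, 13 members were lower and 6 higher, beside 545 and 155 of all genes. The median change was 0.00 in members and -0.01 in all genes, and 148 members were lower and 150 higher. The member was Zfp64. Its log2 TE was -2.16, -2.03 and -2.19 with scramble, -1.94 and -1.90 with Gfp, -2.89, -2.42 and -2.54 with Denr shRNA1 and -3.02, -2.47 and -2.79 with Denr shRNA2. The groups did not overlap, and the change was -0.64 ± 0.13 (adjusted p = 0.063). Beside the higher RNA described above, its footprints differed by -0.14 (adjusted p = 0.38), with 6.32 to 8.14 RPKM in controls and 5.502 to 7.36 in Denr Kd. The call was lost in 13 of 22 alternatives, with changes between -0.71 and -0.56, and without Gfp shRNA replicate 1 and Denr shRNA1 replicate 1 no member was called, where all genes gave 53 lower and 3 higher.

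The next 4 members by unadjusted p did not pass. They were Zfp607b (-0.83 ± 0.19, adjusted p = 0.13, on 3 to 21 footprints per library), Zfp219 (-0.44 ± 0.12, adjusted p = 0.28), Zfp30 (-0.58 ± 0.18, adjusted p = 0.38) and Zfp689 (0.51 ± 0.16, adjusted p = 0.41). Zfp607b, a KRAB gene, had log2 TE of -1.40 to -0.78 in controls and -2.46 to -1.29 in Denr Kd, and Zfp219, a C2H2 repressor, -1.38 to -1.18 and -1.99 to -1.35, so that each pair of ranges overlapped at its edge. For Zfp30 the RNA was higher by 0.70 and the footprints by 0.12.

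Relative 5′ UTR translation is the log2 ratio of 5′ UTR to CDS footprints per length within a library, a measure that sums over all uORFs of a gene. It could be read in 101 members (33.9%) whose 5′ UTR held 20 footprints or more in 9 or more of the 11 RPF-seq libraries, and in 5175 of all genes (49.2%). A member enters through reads in most libraries of both groups, so the filter takes the genes with strong 5′ UTR reading. It weighs more on the members, whose median was 111 CDS footprints per library against 492 in all genes. A gene with few CDS footprints needs a higher ratio to reach 20 on the 5′ UTR. The comparisons of ratio level in this paragraph are therefore set in part by the filter. In control cells the members' median ratio was 0.24, that is more footprints per base on the 5′ UTR than on the CDS, against -0.89 in all genes that passed, and 59 of the 101 (58.4%) lay above 0, against 27.7%. The 33 KRAB-pattern members had a median of 0.96 and the 68 others 0.05. By shared windows the median was 1.47 in the 21 members with at least 5% and 0.07 in the 80 with less. The 17 KRAB-pattern members under 5% had 0.70, and the 5 members without the pattern but with at least 5% had 1.47. The part of each was not tested. Of the 101, 82.2% had an AUG uORF.

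With Denr Kd, 13 of 101 members were higher at FDR 0.1 (12.9%) and 0 were lower, where 18.1% of all genes tested were higher and 0.0386% lower. These 2 shares cannot be told apart here, as the count of members ran from 2 to 28 when single lysates were left out. Members also had fewer CDS footprints, with a median of 111 per library against 492 in all genes, which limits what could be called. By sign 94 of 101 members (93.1%) were higher, as were 93.5% of all genes, and the median change was 0.26 and 0.33. The members with an AUG uORF had a median change of 0.25 (83 genes) and those without it 0.38 (18 genes), and in all genes the 2 medians were 0.28 and 0.41.

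Zfp507 had log2 ratios of 0.25, 0.29 and 0.52 with scramble, 0.30 and 1.07 with Gfp, 1.21, 1.27 and 1.29 with Denr shRNA1 and 1.32, 1.29 and 1.37 with Denr shRNA2. All Denr Kd lysates lay above all controls, although Gfp shRNA replicate 2 came close (0.80 ± 0.16, limma adjusted p = 0.028). Its 5′ UTR footprints rose by 0.84 in mean log2 while its CDS footprints differed by 0.04, on 35 to 89 reads on the 5′ UTR. Zfp386, a KRAB gene on chromosome 12 (116047724 to 116063360), was at 1.80, 2.59 and 2.35 with scramble, 2.32 and 2.59 with Gfp, 3.21, 3.18 and 3.34 with Denr shRNA1 and 3.65, 3.01 and 2.75 with Denr shRNA2 (0.86 ± 0.20, adjusted p = 0.035). Zfp946, a KRAB gene on chromosome 17 (22424222 to 22456689) with 17 non-overlapping AUG uORFs in its annotated 5′ UTR and the first window shown above in its CDS, was at 2.03 to 2.38 in controls and 2.42 to 3.26 in Denr Kd (0.62 ± 0.18, adjusted p = 0.062). Zfp507, Zfp386 and Zfp946 were the 3 called members whose groups did not overlap, and groups did not overlap in 4.83% of all genes tested.

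The other 10 called members overlapped between the groups. The 9 with the largest changes were Zfp958 (0.93 ± 0.34), Zfp68 (0.69 ± 0.20), Zfp655 (0.61 ± 0.22), Zfp367 (0.60 ± 0.21), Zfp949 (0.59 ± 0.22), Zfp622 (0.54 ± 0.19), Zfp64 (0.54 ± 0.20), Zfp61 (0.53 ± 0.19) and Zfp317 (0.52 ± 0.18), with limma adjusted p-values between 0.060 and 0.0998. Zfp958, a KRAB gene that holds the second window above, spread from -2.35 to 0.00 in controls and from -0.96 to 0.50 in Denr Kd. Zfp64 already had a log2 ratio of 2.31 in controls, and reached 2.37 to 3.41 in Denr Kd against 2.02 to 2.66. Zfp622, the ribosome maturation factor, was on the other side, with -1.66 to -0.73 in controls and -0.85 to -0.25 in Denr Kd. In none of the 12 named members did CDS footprints pass the threshold.

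These calls depended on single lysates. Without 1 lysate at a time the count of higher members ran from 2 to 28: it was 2 without Gfp shRNA replicate 1 or without Denr shRNA2 replicate 2, 3 without Denr shRNA1 replicate 2, 4 without Denr shRNA1 replicate 3 or scramble shRNA replicate 3, 6 without Denr shRNA1 replicate 1, 7 without Denr shRNA2 replicate 1, 8 without scramble shRNA replicate 1, and 28 without Gfp shRNA replicate 2. The count of all 5175 genes moved too, from 38 without Denr shRNA2 replicate 2 and 96 without Gfp shRNA replicate 1 to 1769 without Gfp shRNA replicate 2. The list of member counts leaves out scramble shRNA replicate 2 and Denr shRNA2 replicate 3. Without these, in turn, all genes gave 1138 and 964 higher, beside 937 with all lysates. Without Gfp shRNA replicate 1 and Denr shRNA1 replicate 1 the count of members was 0, where all genes gave 31 higher. The measure of 5′ UTR footprints over 5′ UTR RNA gave 0 members and 4 of all genes. The median over members stayed above 0, between 0.18 and 0.32, whichever lysate was left out. The centred median of the members' ratio was lowest in scramble shRNA replicate 3 (-0.41) and Gfp shRNA replicate 1 (-0.34), as it was in all genes (-0.30 and -0.45). The other controls lay between -0.14 and 0.08 and the Denr Kd lysates between -0.04 and 0.24. Those lowest lysates also had the deepest RPF-seq libraries, with 21649878 and 20424301 reads, where the others held 10927303 to 15090773. The part of depth in the ratio was not tested.

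**Figure D4:**
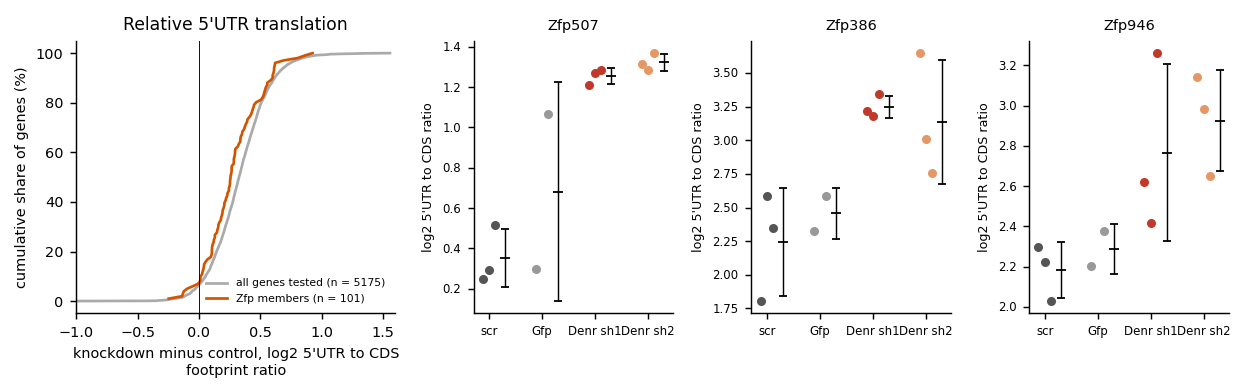
Left, cumulative share of genes (vertical axis, %) by change in log2 5′ UTR to CDS footprint ratio, Denr Kd minus control, for 101 members (orange, median 0.26) and 5175 genes tested (grey, median 0.33). Right, that ratio in each lysate (points) with the mean and SD of each shRNA group for Zfp507, Zfp386 and Zfp946, whose Denr Kd values all lie above their controls.

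The members could be followed by role. The 14 Zfp proteins listed for a main role outside sequence-specific transcription had higher RNA than the members at large (median 24.6 RPKM) and a median log2 TE of -0.38. None of them was called in RNA, footprints or TE, and 1 of the 6 with a 5′ UTR ratio, Zfp622, was. Over all genes tested the shares called were 3.55% in RNA, 10.0% in footprints, 0.475% in TE and 18.1% in 5′ UTR ratio. Lists of this size are too short to be told apart from those shares. Of 27 proteins listed for a studied role in transcription or chromatin, 23 were members, with a median of 12.9 RPKM and a median log2 TE of -0.90. Zfp827 was the only one of the 23 called in RNA, and none was called in footprints, TE or 5′ UTR ratio, beside the same shares of all genes. Zfp57, which guards imprints, changed by 0.11 in RNA, 0.13 in footprints and 0.02 in TE, and Zfp809, which silences retroviral elements, by -0.16, -0.05 and 0.11, all short of the threshold. By class, 2 of 148 KRAB-pattern members were called higher in RNA and 2 in footprints, beside 3 and 3 of the 150 without the pattern. In all genes 2.68% were called higher in RNA and 5.47% in footprints. The median TE change was 0.04 with the KRAB pattern and -0.03 without it, the first with 77 genes of at least 5% shared windows.

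The partners of KRAB proteins were present as RNA in these cells. All 14 genes of a fixed list of the KRAB corepressor and heterochromatin machinery were measured, with a median of 74.9 RPKM, Trim28 at 110 and Setdb1 at 19.9 RPKM. 0 of 14 were called in RNA or TE, where 3.55% and 0.475% of all genes were. In footprints 1 was called, Uhrf1, a reader that brings DNMT1 to hemimethylated DNA, with a change of -0.20 (adjusted p = 0.052), beside 10.0% of all genes. Trim28 differed by -0.12 in RNA (adjusted p = 0.55) and -0.15 in footprints (adjusted p = 0.12). By sign 10 of 14 were lower in RNA and 10 in footprints, where 42.9% and 48.1% of all genes were lower.

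The members' footprints leaned lower with Denr shRNA2 than with Denr shRNA1. The knockdown was not equally deep: Denr RNA was 44.0, 43.2 and 34.4 RPKM with shRNA1 and 15.5, 20.8 and 17.4 RPKM with shRNA2. Depth of knockdown and shRNA sequence cannot be told apart between them. With Denr shRNA2 223 of 298 members (74.8%) were below their level with Denr shRNA1, against 53.5% of all genes, and the median difference, shRNA2 minus shRNA1, was -0.11 in members and -0.01 in all genes. No control lysate enters this difference, but the limma fit takes its spread from all 11 lysates, the controls included. By limma 13 members were lower (4.36%) and 3 higher, where all genes gave 4.01% lower and 5.68% higher, 9.69% in either direction. The centred library medians of the members were 0.08, 0.03 and 0.10 with Denr shRNA1 and -0.05, -0.08 and 0.01 with Denr shRNA2, and these did not overlap. In all genes they lay between -0.00 and 0.02. The members' medians in the control libraries were -0.04, -0.02 and 0.05 with scramble and 0.06 and -0.06 with Gfp, within the span of the Denr Kd values. The 2 libraries of Gfp shRNA thus stood apart as well. Members share these libraries and are not replicates of a shRNA. The lean was similar in the 202 members with under 5% shared windows (74.3% lower) and the 96 others (76.0%), and in 33 Zbtb genes (69.7%) and in 12 of 16 Zkscan or Zscan genes, but not in 17 Klf or Sp genes (41.2%). Without Gfp shRNA replicate 1 and Denr shRNA1 replicate 1 the median was -0.10, with 215 of 298 lower, while 4 members were called lower and 3 higher and the counts of all genes fell from 422 to 246 lower and from 597 to 376 higher.

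Zfp623, on chromosome 15 (75940952 to 75949400), had 13.5, 13.2 and 13.9 RPKM of footprints with Denr shRNA1 and 9.32, 8.96 and 9.002 with Denr shRNA2, on either side of the scramble lysates at 11.3, 10.6 and 10.1 (difference -0.57 ± 0.07, adjusted p = 0.00072). Zfp597, on chromosome 16 (3858321 to 3884561), had 12.3, 12.6 and 12.8 RPKM and 5.81, 7.64 and 8.87 (-0.77 ± 0.15, adjusted p = 0.0084). In both the groups stood apart. Zfp658 (1.59 to 1.71 against 0.847 to 1.30 RPKM, adjusted p = 0.044) and Zfp93 (1.72 to 2.00 against 0.911 to 1.57 RPKM, adjusted p = 0.070) were lower with shRNA2 at lower levels. Zfp580 went the other way, with 8.35, 7.06 and 6.76 RPKM against 11.6, 9.11 and 12.9 (0.58 ± 0.14, adjusted p = 0.027).

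In RNA the lean depended on the lysates kept. With all lysates 152 of 298 members were lower with shRNA2, the median difference was -0.01, and 0 members were called, with 0.932% lower and 1.13% higher in all genes. At an unadjusted p under 0.05 there were 13 lower and 6 higher members, beside 779 and 656 of all genes. Without Gfp shRNA replicate 1 and Denr shRNA1 replicate 1, RNA was lower with shRNA2 in 222 of 298 members, with a median of -0.10, close to that of the footprints, and in 5364 of all genes, with a median of -0.00. In that fit 2 members were called lower and 1 higher, beside 114 and 198 of all genes. In TE 213 of 298 were lower with a median of -0.11, which was 0.00 without Gfp shRNA replicate 1 and Denr shRNA1 replicate 1, and 0 members were called (6 lower and 3 higher at an unadjusted p under 0.05, beside 180 and 212 of all genes). In 5′ UTR ratio 0 of 101 were called, with 2 lower at that level, beside 108 of all genes. Against the same controls, Denr shRNA1 gave 1 member lower and 6 higher in footprints and Denr shRNA2 gave 6 lower and 2 higher, where all genes gave 6.21% lower and 4.79% higher for shRNA1 and 5.78% and 5.87% for shRNA2. In RNA Denr shRNA1 gave 5 members higher (1.72% lower, 2.14% higher and 3.86% in either direction in all genes) and Denr shRNA2 gave 3 higher (1.32%, 2.41% and 3.73%), with 0 lower in each. At an unadjusted p under 0.05 the RNA counts were 5 lower and 28 higher for shRNA1 (531 and 1190 of all genes) and 9 lower and 15 higher for shRNA2 (695 and 1054). In TE and 5′ UTR ratio neither called a member. In TE 0.0475% of all genes were lower for shRNA1, and 0.437% were lower and 0.038% higher for shRNA2, and in 5′ UTR ratio 0.367% were higher for shRNA1 and 0.618% for shRNA2. At an unadjusted p under 0.05, shRNA1 gave 4 members lower and 5 higher in TE (384 and 79 of all genes) and 12 higher in 5′ UTR ratio (1421). At the same level shRNA2 gave 15 lower and 4 higher in TE (586 and 282) and 15 higher in 5′ UTR ratio (893). Both contrasts share their 5 controls, and their fit pools the spread of all 11 lysates.

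**Figure D5:**
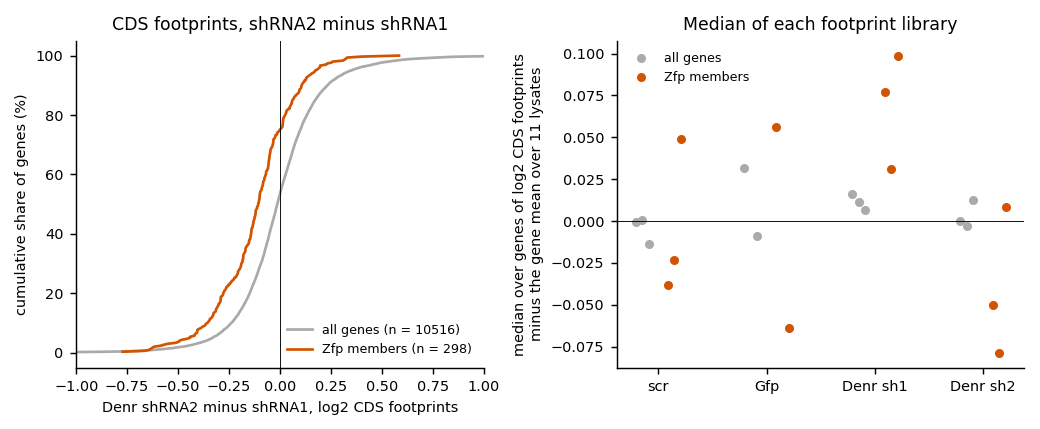
Left, cumulative share of genes (vertical axis, %) by difference in log2 CDS footprints, Denr shRNA2 minus Denr shRNA1, for 298 members (orange) and 10516 genes (grey). Right, median over genes of the centred log2 CDS footprints in each of the 11 RPF-seq libraries by shRNA (scr, scramble). The 3 libraries of Denr shRNA1 (0.03 to 0.10) lie above the 3 of Denr shRNA2 (-0.08 to 0.01) for the members.

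The 2 control shRNAs, neither directed against Denr, gave the size of differences without knockdown. For Gfp minus scramble, 4 members were lower and 6 higher in footprints (3.1% lower and 5.38% higher in all genes, 8.48% in either direction) and 0 in RNA (0.171% lower and 0.533% higher in all genes), TE or 5′ UTR ratio (0.0% of all genes). At an unadjusted p under 0.05 the members gave 4 lower and 6 higher in RNA (344 and 675 of all genes), 1 and 7 in TE (88 and 145) and 4 and 3 in 5′ UTR ratio (129 and 72). The median over members was -0.11 in RNA and 0.12 in TE, in each case larger than the median for Denr Kd minus control. Without Gfp shRNA replicate 1, it was 0.02 and -0.09, a change of sign in both, and 1 member was called higher and 0 lower in footprints.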

How the data were processed

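RPF-seq and RNA-seq were both made from each of 11 NIH3T3 lysates. The deposited values are RPKM per gene for 5′ UTR and CDS. To make them, the authors trimmed reads with Cutadapt, kept footprints of 26 to 35 nt and RNA reads of 21 to 60 nt, and aligned them with Bowtie2 2.2.1 to rRNA, tRNA and Ensembl 84 transcripts and with TopHat2 2.0.11 to the genome (GRCm38.p2, mm10), using Cufflinks 2.2.1 for the expressed isoforms. Reads that fitted several regions were given to the CDS first, RPKM were scaled by the upper quartile, and genes with under 10 reads in most samples were removed. The treatment of reads that map to several genes, and of strand, is not given in the sources used here. Library totals on CDS and 5′ UTR, recovered from the RPKM steps, were 10927303 to 21649878 (RPF) and 8514080 to 20109700 (RNA).

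Values were tested as log2(RPKM + 0.1) with limma 3.58.1 (R 4.3.3, empirical Bayes with trend, 2-sided), adjusted by the Benjamini-Hochberg method over all genes, at FDR 0.1. Fold changes on that scale understate those of low genes, and p-values measure the spread between these lysates, which the study calls biological replicates. Denr Kd against control used 2 groups and contrasts between shRNAs used 4. Sequence features came from GENCODE vM21 transcripts. Members and lists were chosen with earlier results of these data known. Named were the members past FDR 0.1 (at most 12 per measure by size, 5 for the shRNA contrast), the 5 smallest p-values where fewer than 5 passed, the 3 highest and lowest in control RNA and TE, the extremes of finger number, and listed genes. The alternatives were other pseudocounts, filters, centring, controls, shRNAs, limma-voom on recovered reads, a replicate block and leaving out lysates. The tests were tried on simulated data first, and summaries were made with Python 3.11.15.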

Additional observations from a re-analysis of the deposited data

Results flagged for a closer look

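In 74 groups of 4 to 6 lysates examined for the named members, 2 held a lysate far from the others by Dixon's ratio, where chance gives about 1 in 20. For Zfp689 footprints, Gfp shRNA replicate 1 lay at 0.86 (log2 RPKM) and the other controls at 0.49 to 0.59. For Zfp868 footprints, Denr shRNA2 replicate 2 lay at 1.87 and the other Denr Kd lysates at 2.18 to 2.31.

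Footprints of 5 named members differed between the 2 Denr shRNAs in a direct contrast by limma. The differences, shRNA2 minus shRNA1, were -0.77 for Zfp597 (adjusted p = 0.0084), -0.66 for Zfp93 (adjusted p = 0.070), -0.64 for Zfp658 (adjusted p = 0.044), 0.58 for Zfp580 (adjusted p = 0.027) and -0.57 for Zfp623 (adjusted p = 0.00072). In Zfp93 and Zfp658 these rest on 18 to 69 and 23 to 78 footprints per library.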

How the results depend on the processing

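Of the counts and medians over members, 377 recomputed values kept within the limits set for them (1.5 times for a count) and 100 did not. Of the named genes, 419 recomputed values kept their side of the threshold, 229 lost a call and 1 gained it (Zfp607b TE without Denr shRNA2 replicate 3, -0.96). The causes were not tested. Members with higher RNA numbered 3 with libraries centred on their median, 2 with Denr shRNA1 alone, 3 (and 2 lower) with Denr shRNA2 alone, and 13 (and 3 lower) with scramble shRNA as the only control, where all genes gave 191, 70, 306 (168 lower) and 708 (232 lower). Footprints gave 0 lower with Denr shRNA1 alone, 1 higher and a median of -0.047 with Denr shRNA2 alone, and 9 lower and 17 higher with scramble alone (all genes 487 lower, 379 higher, and 1181 lower and 1470 higher). TE gave 0 lower with Denr shRNA1, Denr shRNA2 or scramble alone (all genes 1, 40 and 9). The 5′ UTR ratio gave 0 higher with either shRNA alone, 5 with a filter of 1 RPKM on the 5′ UTR and 0 over 5′ UTR RNA (all genes 5, 9, 131 and 4). Gfp minus scramble gave 0 lower and 0 higher in footprints with only those groups fitted. On the transcript with the longest 5′ UTR, 69.4% of members and 57.9% of all genes held an AUG uORF.

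Leaving out both Gfp shRNA replicate 1 and Denr shRNA1 replicate 1, chosen after seeing the data, changed the medians for Denr Kd minus control. Over members they were -0.002 in RNA, 0.028 in footprints, 0.002 in TE and 0.20 in 5′ UTR ratio, and over all genes 0.025, 0.013, -0.004 and 0.27. This omission gave 4 lower and 13 higher in RNA, 1 higher in footprints, 0 lower in TE and 0 higher in 5′ UTR ratio (all genes 257, 718, 520, 53 and 31). For shRNA2 minus shRNA1 it gave 4 lower in footprints (all genes 246, from 422) and moved the RNA median from -0.009 to -0.095, with 222 of 298 members lower, and for Gfp minus scramble 0 in either direction in footprints and medians of 0.022 in RNA and -0.088 in TE.

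Replicate numbers are shared between the shRNAs. After centring on shRNA means, same-numbered lysates correlated at a mean of 0.33 (RNA), 0.18 (RPF), 0.23 (TE) and 0.21 (5′ UTR ratio). The correlation was above 0.1 in 10, 13, 10 and 11 of 15 such pairs, and 7, 9, 9 and 9 of 11 lysates correlated best with their own number. The main fits leave this pairing out. With the replicate number as a block, 2 members were lower and 12 higher in RNA, 7 lower in footprints and 34 higher in 5′ UTR ratio (all genes 253, 750, 873 and 2412), with 23 lower in footprints for shRNA2 minus shRNA1 and 7 lower for Gfp minus scramble.

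Leaving out each lysate in turn gave, for Denr Kd minus control, 0 to 2 lower and 3 to 8 higher in RNA (8 without Gfp shRNA replicate 1, where all genes gave 586), 0 to 8 lower and 2 to 11 higher in footprints (8 and 11 without Gfp shRNA replicate 2, where all genes gave 952 and 994), 0 to 1 lower in TE, and 2 to 28 higher in 5′ UTR ratio (38 to 1769 of all genes). For shRNA2 minus shRNA1 footprints gave 3 to 18 lower and 1 to 3 higher, and for Gfp minus scramble 0 to 8 lower and 0 to 7 higher, with medians of -0.172 to 0.022 in RNA and -0.088 to 0.263 in TE. The median of 111 footprints per member and library limits what could be detected in single members.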
